A study of Mus musculus with 7 samples.

Results

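RNA-seq of lung regulatory T (Treg) cells was searched for the transcripts of antigen-presenting cells, cell types that lie outside the sorted gate. The 41 genes were taken by exact match of the symbol among the 19736 gene symbols of the study, and all 41 were found. They form 4 lists: 7 genes of MHC class II and its peptide loading, 10 B cell genes, 9 dendritic cell genes, and 15 macrophage and monocyte genes. Of these, 39 passed a filter on low values, which asked for a normalised count of 10 or more in 3 or more of the 7 libraries. Clec9a of the dendritic cell list and Marco of the macrophage list did not pass and were not tested, but they enter the sign counts, medians and levels given for the whole lists.

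All 7 libraries came from female mice, 5 to 7 weeks old, of the genotype Il4raR576, an allele of the interleukin-4 receptor alpha chain, with EGFP marking Foxp3-expressing cells. The mice received 100 µg of ovalbumin in the peritoneum, a boost 2 weeks later, and from day 29 an aerosol of 1% ovalbumin for 30 minutes a day on 3 days, and were killed on day 32. Foxp3-EGFP+ cells were sorted by flow cytometry from whole lung digests into CCR6+ cells (3 libraries) and CCR6- cells (4 libraries, the study's controls), so both groups share the allele, the reporter and the allergen. CCR6 is a chemokine receptor found, among other cells, on T helper 17-like cells. The question asked here is which antigen-presenting cell transcripts differed with the CCR6 gate and which with individual libraries. Whether each library is a separate mouse, a pool or a repeat is not given in the labels, so every p-value rests on variation between libraries that could be technical.

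MHC class II molecules present peptides to CD4 T cells. An alpha and a beta chain pair in the endoplasmic reticulum around the invariant chain, and peptide is loaded in endosomes with the help of the H2-DM dimer, while the co-activator CIITA switches the whole gene set on. In the lung, the main carriers are B cells, dendritic cells, and macrophages in airspaces and tissue, each with lineage genes that mostly are not T cell genes. In bulk RNA a lower value for such a gene can come from fewer cells of a type or from less RNA per cell, and these cannot be told apart. The values also do not show which cells, the sorted Treg cells included, made the RNA of a gene.

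Values are normalised counts, that is, reads scaled by the authors' size factor for the library. Libraries held from 11607780 reads, in CCR6+ replicate 2, to 47261246 reads, in CCR6- replicate 4. A single read was worth 2.27 units in CCR6+ replicate 2 and between 0.677 and 1.02 units in the others. Ccr6 itself was at 7309, 2750 and 6406 in CCR6+ replicates 1 to 3, and at 908.9, 851.0, 438.6 and 271.4 in CCR6- replicates 1 to 4. The groups did not overlap for Ccr6, in the direction of the labels, although the limma adjusted p over 14582 genes was 0.302. Foxp3, the lineage factor of Treg cells, was at 50875, 12206 and 37258 in the CCR6+ libraries and at 39097, 30878, 36186 and 19376 in the CCR6- libraries. CCR6+ replicate 2 was therefore the lowest library for Foxp3 and the lowest CCR6+ library for Ccr6. It also stood apart in its gene content: only 2.16% of symbols were at 0 there, against 6.89% to 29.7% in the other libraries. Results are given with and without it.

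Antigen-presenting cell transcripts were detected in all 7 libraries, and CCR6+ replicate 2 held the highest value of 39 of the 41 genes. Over all 14582 genes kept, that library was the highest for 43.6%. The 2 exceptions were Cd79a and Cd79b, both highest in CCR6+ replicate 1. The mean of log2(normalised count + 1) was higher in the CCR6+ group for 40 of the 41 genes, with a median log2 difference of 2.17, against 56.9% of all genes kept and a median of 0.10. Without CCR6+ replicate 2 the difference was positive for 40 of 41 again, with a median of 1.27, against 50.1% of genes and a median of 0.00. The exception was Siglech in both cases.

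No member passed limma's adjusted threshold of 0.05 (Benjamini-Hochberg over 14582 genes), and 0% of all genes did. The smallest adjusted p among the members was 0.432. At an unadjusted p under 0.05, 15 members were higher in CCR6+ and none was lower, against 8.22% of all genes that were higher. These were 5 of the class II list, 3 of the B cell list, 5 of the dendritic cell list and 2 of the macrophage list. On the recovered whole reads, DESeq2 called 9 members higher (3.72% of all genes), namely H2-Ab1, H2-Eb1, H2-DMb1, Ciita, Cr2, Cd209a, Mgl2, Csf1r and Cd14. It called 0 members without CCR6+ replicate 2 (0.769% of all genes), and edgeR called 0 members with it (0.0137% of all genes). The plot of each gene by library shows the spread behind these tests.

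**Figure D1:**
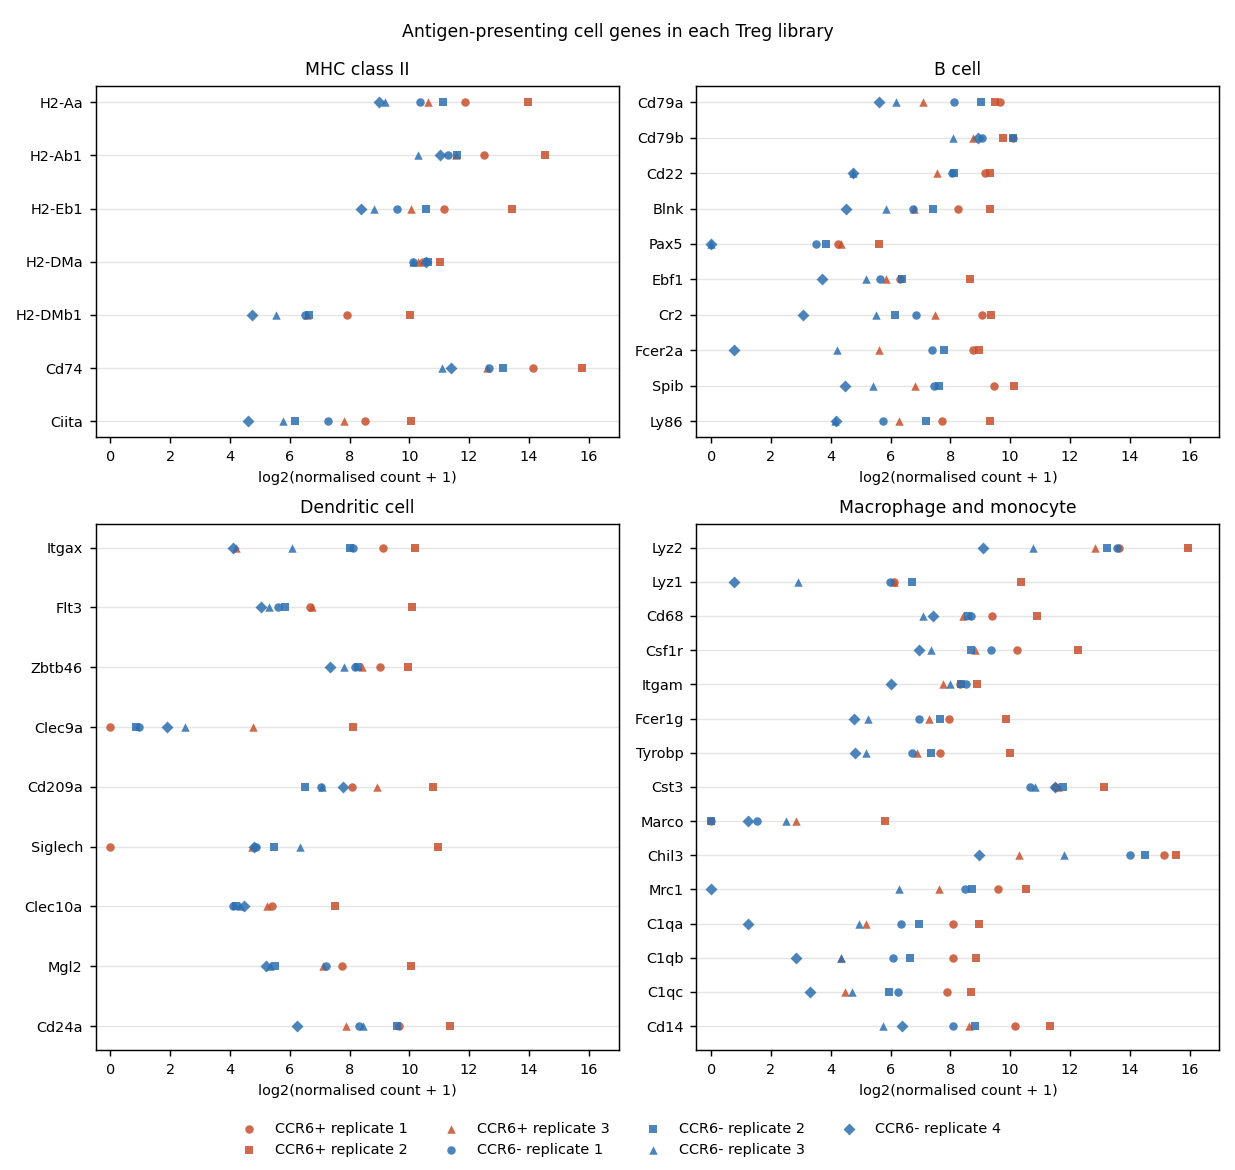
Level of each of the 41 genes in each library, as log2(normalised count + 1) on the horizontal axis, with 1 panel for each of the 4 lists; red symbols are the 3 CCR6+ libraries, blue symbols the 4 CCR6- libraries, and the symbol shape gives the replicate. CCR6+ replicate 2 (red square) is rightmost for 39 genes, and CCR6+ replicate 3 (red triangle) lies among the blue symbols for most of them.

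The 5 H2 genes of the class II list lie close together on chromosome 17 in the mm10 build (GENCODE M21): H2-DMa at chr17:34119541-34139101, H2-DMb1 at chr17:34153072-34160230, H2-Ab1 at chr17:34257689-34269419, H2-Aa at chr17:34282744-34287823 on the minus strand, and H2-Eb1 at chr17:34305867-34316674. Ciita lies at chr16:10480059-10528418. Class II promoters are read by CIITA through an enhanceosome on conserved X and Y boxes, and 3 promoters of class II genes are shown as background. These 3 genes had the same order of the 7 libraries. Blnk of the B cell list and Fcer1g and Tyrobp of the macrophage list had that order too, while Ciita had another. Whether the boxes bear on the order was not tested. The sequences cover 250 bases before to 50 bases after the start of transcription (RefSeq, GRCm38.p6), 5′ to 3′ on the gene's strand, with ACNGATG, the end of the X box, and ATTGG, the core of the Y box, in capitals.
H2-Eb1 (chr17:34305617-34305916, plus strand): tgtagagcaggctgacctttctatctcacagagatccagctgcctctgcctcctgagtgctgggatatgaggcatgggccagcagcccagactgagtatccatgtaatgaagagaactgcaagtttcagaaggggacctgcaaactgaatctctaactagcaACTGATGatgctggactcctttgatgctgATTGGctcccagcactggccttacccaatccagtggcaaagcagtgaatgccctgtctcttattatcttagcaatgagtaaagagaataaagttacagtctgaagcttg
H2-DMb1 (chr17:34152941-34153240, plus strand): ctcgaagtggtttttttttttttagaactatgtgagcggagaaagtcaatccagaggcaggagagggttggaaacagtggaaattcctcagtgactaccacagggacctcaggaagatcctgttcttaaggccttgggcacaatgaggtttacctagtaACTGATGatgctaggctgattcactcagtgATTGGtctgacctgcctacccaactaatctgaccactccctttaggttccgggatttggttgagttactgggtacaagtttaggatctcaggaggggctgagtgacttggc
H2-Aa (chr17:34287774-34288073, minus strand): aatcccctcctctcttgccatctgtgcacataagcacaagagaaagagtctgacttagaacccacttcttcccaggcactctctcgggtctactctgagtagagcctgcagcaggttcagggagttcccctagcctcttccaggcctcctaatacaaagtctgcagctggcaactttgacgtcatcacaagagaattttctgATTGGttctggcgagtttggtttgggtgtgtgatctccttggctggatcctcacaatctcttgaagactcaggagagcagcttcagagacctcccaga
In H2-Eb1 the 2 motifs stood 22 bases apart on the same strand, and in H2-DMb1 they stood 23 bases apart. H2-Eb1 also held ATTGG on the opposite strand, after the marked match, and it is not in capitals. In H2-Aa, ATTGG was on the gene's strand. ACNGATG was found there only on the opposite strand, near the 5′ end of the sequence, and is not in capitals. That match does not show where the X box of H2-Aa lies. Both strands were searched, and the matches in capitals do not overlap each other. Among 32851 promoters of this length, 9.85% held ACNGATG, 37.4% held ATTGG, and 0.158% held both on 1 strand with 10 to 30 bases between them. The table held promoters of 31 of the 41 members, of which 5 held ACNGATG, 13 held ATTGG and 2 (H2-Eb1 and H2-DMb1) held the pair. The 2 entries for H2-DMa lie 3290 and 5976 bases after the GENCODE start of that gene and held no pair. No entry was matched for H2-Ab1, Cd74 and Ciita.

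Of the peptide-presenting chains, H2-Ab1, the beta chain of I-A, was at 5779, 23548 and 3011 in CCR6+ replicates 1 to 3 and at 2517, 3109, 1248 and 2062 in CCR6- replicates 1 to 4. H2-Aa, its alpha chain, was at 3700, 16130 and 1586, and at 1316, 2248, 584.8 and 507.6. H2-Eb1, the beta chain of I-E, was at 2272, 11035 and 1064, and at 762.3, 1491, 448.7 and 335.0. For all 3 chains CCR6+ replicates 2 and 1 were the highest libraries in that order, and the groups overlapped because CCR6+ replicate 3 lay below CCR6- replicate 2. The log2 differences were 1.81 (SE 0.73) for H2-Ab1, 2.23 (SE 0.91) for H2-Aa and 2.21 (SE 0.90) for H2-Eb1, each with a limma adjusted p of 0.471. Without CCR6+ replicate 2 they were 0.98 (SE 0.46), 1.32 (SE 0.73) and 1.27 (SE 0.68).

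Cd74, the invariant chain, was the most abundant class II gene per kilobase of exon in every library. Its normalised counts were 17927, 56003 and 6148 in the CCR6+ libraries and 6456, 9053, 2163 and 2715 in the CCR6- libraries. CCR6+ replicate 3 lay below CCR6- replicates 1 and 2, so the groups overlapped. The log2 difference was 2.09 (SE 0.87, limma adjusted p 0.471), and 1.29 (SE 0.76) without CCR6+ replicate 2. Per kilobase, Cd74 in CCR6+ replicate 2 came to 33355, above Cd3e, a CD3 subunit of the T cell receptor complex, at 5120 in the same library. In CCR6- replicate 4 the order was the opposite, with Cd74 at 1617 and Cd3e at 5681.

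The loading dimer H2-DM gave 2 unlike patterns. H2-DMa, its alpha chain, was at 1413, 2104 and 1240 in the CCR6+ libraries and at 1125, 1564, 1126 and 1517 in the CCR6- libraries. These 7 values lay within 1.87 times of each other, the narrowest range of the 41 genes, and the groups overlapped (log2 difference 0.23, SE 0.26, limma adjusted p 0.671). H2-DMb1, a beta chain, was at 241.4, 1042 and 95.42, and at 89.85, 99.43, 45.06 and 25.72. Its highest library was 40.5 times its lowest, and CCR6+ replicate 3 lay just under CCR6- replicate 2 (log2 difference 2.32, SE 0.89, limma adjusted p 0.466). Without CCR6+ replicate 2 the differences were 0.01 (SE 0.23) for H2-DMa and 1.40 (SE 0.68) for H2-DMb1. Some reads could be shared or misplaced here: 22.7% of the 50-base windows of H2-DMb1 also occur in its neighbour H2-DMb2, and 10.4% of the exonic bases of H2-DMa overlap other genes.

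Ciita, the class II co-activator, was the only gene of this list whose groups did not overlap. Its normalised counts were 363.4, 1074 and 223.3 in the CCR6+ libraries and 155.1, 70.43, 54.25 and 23.01 in the CCR6- libraries. The log2 difference was 2.84 (SE 0.78), with the smallest adjusted p of the 41 genes by limma (0.432), and 2.20 (SE 0.74) without CCR6+ replicate 2. Per kilobase it was the lowest class II gene in all 7 libraries, at 2.41 to 113.

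Ratios of genes within a library, per kilobase of exon, show which transcripts kept pace with each other. The ratio of H2-Aa to H2-Ab1 lay between 0.317 and 0.489 in 6 libraries and was 0.166 in CCR6- replicate 4. The ratio of H2-DMa to H2-DMb1 was 2.85, 0.985 and 6.34 in the CCR6+ libraries and 6.11, 7.67, 12.2 and 28.8 in the CCR6- libraries. It was thus lowest in the libraries richest in the other class II genes and highest in the 2 poorest. Cd74 over H2-Ab1 stayed between 2.01 and 4.74.

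**Figure D2:**
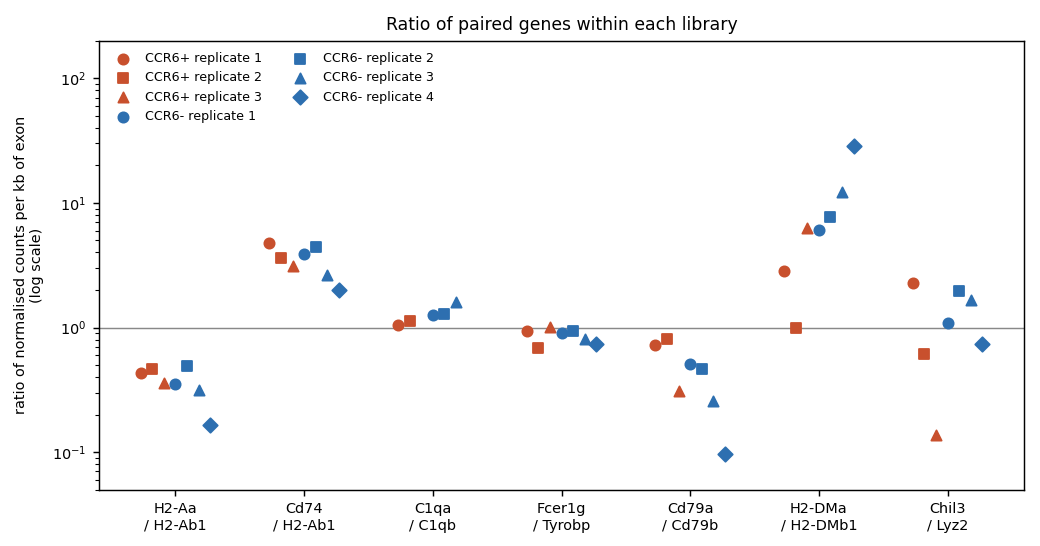
Ratio of 2 genes within each library, each as normalised count per kilobase of exon, on a log vertical axis; red symbols are CCR6+ and blue symbols CCR6- libraries, the shape gives the replicate, and a ratio is drawn only where both genes had at least 20 reads. C1qa over C1qb, drawn in 5 libraries, and Fcer1g over Tyrobp stay within narrow bands. H2-Aa over H2-Ab1 does so except in CCR6- replicate 4, at 0.166. H2-DMa over H2-DMb1 runs from 0.985 to 28.8 and Chil3 over Lyz2 from 0.137 to 2.28.

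Taken by their median, other genes of the class II pathway had a smaller difference than most of the 7 members. The list of 12 (proteases, costimulators, H2-O chains and the RFX factors, among others) had a median log2 difference of 0.37, and 0.31 without CCR6+ replicate 2. Single genes of this list ranged from -1.23 to 1.96, so some differed about as much as the members. Of the 12 genes 9 were higher and 3 lower in the CCR6+ group, and 0 passed limma's adjusted threshold. Ctss, the protease that trims the invariant chain, was at 9859, 10580 and 5807 in the CCR6+ libraries and at 5802, 7697, 4591 and 4462 in the CCR6- libraries. Lgmn, another endosomal protease, was at 6962, 4443 and 5926, and at 4824, 5106, 3762 and 5712, with CCR6+ replicate 2 below 3 of the 4 CCR6- libraries. H2-Ob, the beta chain of the H2-O dimer that restrains H2-DM, went the other way, at 1349, 1053 and 1850 against 3080, 2583, 3378 and 4110. Its groups did not overlap and every CCR6+ library was the lower (log2 difference -1.23, SE 0.26, limma adjusted p 0.374).

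As a list, B cell transcripts were highest in CCR6+ replicates 1 and 2 and lowest in CCR6- replicates 3 and 4. The signalling chains of the antigen receptor had the highest means. Cd79a was at 801.6, 714.3 and 136.0 in CCR6+ replicates 1 to 3, and at 276.2, 515.4, 70.81 and 47.38 in CCR6- replicates 1 to 4. Cd79b, its partner, was at 1093, 871.2 and 432.4, and at 535.3, 1081, 269.4 and 481.9. Both sets overlapped between the groups, with CCR6- replicate 2 near CCR6+ replicate 1 for Cd79b. The log2 differences were 1.52 (SE 1.05, limma adjusted p 0.564) for Cd79a and 0.51 (SE 0.54, limma adjusted p 0.662) for Cd79b. Per kilobase, the ratio of Cd79a to Cd79b was 0.720, 0.805 and 0.309 in the CCR6+ libraries and 0.507, 0.468, 0.258 and 0.0966 in the CCR6- libraries, so this receptor pair did not keep a fixed ratio.

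Among B cell surface receptors, Cr2, the complement receptor CD21, had 533.5, 657.4 and 179.7 in the CCR6+ libraries and 113.5, 70.43, 44.14 and 7.445 in the CCR6- libraries. The groups did not overlap, and the log2 difference was 3.25 (SE 0.97, limma adjusted p 0.440), or 2.89 (SE 1.13) without CCR6+ replicate 2. Cd22, an inhibitory co-receptor, was at 569.6, 643.7 and 187.8, and at 264.8, 278.4, 25.75 and 25.72. CCR6+ replicate 3 lay under CCR6- replicates 1 and 2, and the log2 difference was 2.27 (SE 1.11, limma adjusted p 0.492). Fcer2a, the low-affinity IgE receptor CD23, had the widest range among the B cell genes with reads in every library. It was at 429.6, 498.2 and 47.71, and at 167.4, 219.6, 17.47 and 0.6768, the last of which is a single read. CCR6- replicates 1 and 2 lay well above CCR6+ replicate 3, so the groups overlapped (log2 difference 2.74, SE 1.91, limma adjusted p 0.565).

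Spib and Pax5 are transcription factors of the B lineage. Spib was at 695.9, 1121 and 110.6 in the CCR6+ libraries and at 172.1, 193.9, 41.38 and 20.98 in the CCR6- libraries, with CCR6+ replicate 3 below CCR6- replicates 1 and 2 (log2 difference 2.57, SE 1.12, limma adjusted p 0.478). Pax5, which fixes B cell identity, was at 18.04, 47.77 and 19.29, and at 10.40, 13.26, 0 and 0. The groups did not overlap for Pax5 (log2 difference 2.90, SE 1.17, limma adjusted p 0.471), but the counts were small: 21, 21 and 19 reads in the CCR6+ libraries and 11, 16, 0 and 0 in the CCR6- libraries. A count of 0 allows up to 2.76 units in CCR6- replicate 3 and 2.03 units in CCR6- replicate 4, counting error only. Ebf1 (a B lineage factor), Blnk (an adaptor of the antigen receptor) and Ly86 (the partner chain of the receptor RP105) had log2 differences of 1.71 (SE 0.89), 2.00 (SE 0.87) and 2.47 (SE 1.02), and overlapped between the groups.

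Over the 10 B cell genes the median log2 difference was 2.37, and 1.80 without CCR6+ replicate 2. All 10 were higher in the CCR6+ group in both cases. The other B lineage genes of a second list, 12 in all, had a median of 1.44, or 0.68 without that library, with 11 higher and 1 lower, and 9 higher and 3 lower without it. Of that list Pou2af1, a co-activator of B cells, was at 2006, 1824 and 611.1 in the CCR6+ libraries and at 595.8, 1114, 452.4 and 192.9 in the CCR6- libraries, which overlapped. Jchain, the joining chain of secreted antibodies, was highest per library at 9922 in CCR6+ replicate 2 and at 8910 in CCR6- replicate 2, with 1298 to 4461 in the other 5, so its order differed from that of Cd79a.

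Of the 9 dendritic cell genes, 4 had groups that did not overlap, with every CCR6+ library the higher, as 7.96% of all genes kept did. Cd209a, a C-type lectin of conventional and monocyte-derived dendritic cells, was at 272.3, 1756 and 485.2 in CCR6+ replicates 1 to 3 and at 132.4, 89.49, 133.3 and 216.6 in CCR6- replicates 1 to 4. Zbtb46, a transcription factor of conventional dendritic cells, was at 522.4, 996.3 and 344.1, and at 289.4, 307.4, 221.6 and 161.1. Flt3, the receptor for the cytokine that sustains dendritic cells, was at 100.5, 1094 and 106.6, and at 48.24, 56.35, 38.62 and 31.81. For these 3 genes each CCR6+ library lay above each CCR6- library. The log2 differences were 2.17 (SE 0.66, limma adjusted p 0.440) for Cd209a, 1.24 (SE 0.42, limma adjusted p 0.449) for Zbtb46 and 2.39 (SE 0.87, limma adjusted p 0.459) for Flt3. Without CCR6+ replicate 2 they were 1.41 (SE 0.42), 0.83 (SE 0.34) and 1.26 (SE 0.27).

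The lectins Clec10a and Mgl2 are close relatives found on conventional dendritic cells and macrophages. Clec10a was at 41.24, 182.0 and 36.54 in the CCR6+ libraries and at 16.08, 17.40, 19.31 and 20.98 in the CCR6- libraries. These groups did not overlap, and the 4 CCR6- values lay within 1.30 times of each other (log2 difference 1.77, SE 0.57, limma adjusted p 0.444). It kept its sign without CCR6+ replicate 2 (1.04, SE 0.18), while quantile normalization gave -0.08. Mgl2 was at 213.1, 1065 and 137.0, and at 145.7, 43.92, 39.54 and 35.87. Here CCR6- replicate 1 lay above CCR6+ replicate 3, so the groups overlapped (log2 difference 2.49, SE 0.84, limma adjusted p 0.449). Of the 50-base windows of Mgl2, 12.2% also occur in Clec10a, so part of their reads may be uncertain.

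Itgax and Cd24a, which are shared with other cell types, followed individual libraries. Itgax, the integrin chain CD11c of dendritic cells and airspace macrophages, was at 552.4, 1176 and 17.26 in the CCR6+ libraries and at 278.1, 256.0, 67.13 and 16.24 in the CCR6- libraries. CCR6+ replicate 3 was 32.0 times lower than CCR6+ replicate 1 and next to CCR6- replicate 4, so the group difference of 1.25 (SE 1.71, limma adjusted p 0.724) was smaller than its error. It was 0.07 without CCR6+ replicate 2 and 3.07 without CCR6+ replicate 3. Cd24a, the heat-stable antigen that B cells, dendritic cells and epithelium carry, was at 806.7, 2639 and 232.5, and at 320.6, 769.0, 350.4 and 74.45. CCR6+ replicate 3 was lower than 3 of the 4 CCR6- libraries (log2 difference 1.48, SE 1.06, limma adjusted p 0.569).

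Siglech and Clec9a mark plasmacytoid cells and the cross-presenting type 1 conventional dendritic cells. Siglech was at 1999 in CCR6+ replicate 2, with 879 reads, at 0 in CCR6+ replicate 1, and at 25.38 to 80.00 in the other 5 libraries. CCR6+ replicate 2 was 25.0 times the next library, while in CCR6+ replicate 1 a count of 0 allows up to 2.58 units. Its log2 difference was -0.14 (SE 2.40, limma adjusted p 0.979), -3.01 without CCR6+ replicate 2 and 2.47 without CCR6+ replicate 1, so its sign depended on which library was left out. Clec9a was at 277.5 in CCR6+ replicate 2 and 26.39 in CCR6+ replicate 3, at 0 in CCR6+ replicate 1, and at 5 reads or fewer in each CCR6- library. CCR6+ replicate 1, high in B cell genes, thus had no read of either gene.

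Over the 9 dendritic cell genes the median log2 difference was 1.77, and 0.84 without CCR6+ replicate 2. Over the 8 that passed the filter it was 1.63, and 0.94 without that library. The other dendritic cell genes, a list of 14, had a median of 1.92, or 1.23 without that library, with 14 of 14 and 11 of 14 higher. Irf8 and Sirpa had the highest means there. Irf8, a factor of dendritic cells and B cells, was at 3618, 6922 and 2496 in the CCR6+ libraries and at 2556, 2581, 2275 and 3230 in the CCR6- libraries, which overlapped. Sirpa, a receptor of type 2 conventional dendritic cells and macrophages, was at 1470, 5478 and 806.0, and at 790.7, 526.2, 172.9 and 53.47, which did not overlap (log2 difference 2.90, SE 1.11).

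Chil3 and Lyz2 had the highest means of the macrophage and monocyte list. Chil3, the chitinase-like protein of alternatively activated and airspace macrophages, was at 36360, 48181 and 1252 in the CCR6+ libraries and at 16509, 23205, 3552 and 496.1 in the CCR6- libraries. CCR6+ replicate 3 was 29.1 times lower than CCR6+ replicate 1 and below 3 CCR6- libraries, and the log2 difference of 1.35 (SE 1.84, limma adjusted p 0.724) was smaller than its error. It was 0.40 without CCR6+ replicate 2, 3.04 without CCR6+ replicate 3 and 0.23 without CCR6- replicate 4. Lyz2, lysozyme of macrophages and neutrophils, was at 12844, 63003 and 7346, and at 12182, 9618, 1730 and 538.7. CCR6- replicates 1 and 2 lay between CCR6+ replicates 1 and 3 (log2 difference 2.49, SE 1.33, limma adjusted p 0.506, and 1.59 without CCR6+ replicate 2). Per kilobase, Chil3 over Lyz2 was 2.28, 0.617 and 0.137 in the CCR6+ libraries and 1.09, 1.95, 1.66 and 0.743 in the CCR6- libraries. The ratio was thus not fixed, and was lowest in CCR6+ replicate 3. Both genes were still highest in CCR6+ replicate 2, then in CCR6+ replicate 1, and lowest in CCR6- replicate 4. Lyz1, a close copy of Lyz2, had 1301 in CCR6+ replicate 2 and at most 103.6 elsewhere, and 16.1% of its 50-base windows also occur in Lyz2.

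Csf1r, the receptor for the growth factor of monocytes and macrophages, was at 1203, 4900 and 454.8 in the CCR6+ libraries and at 662.1, 412.7, 161.8 and 123.2 in the CCR6- libraries. Cd14, the lipopolysaccharide co-receptor of monocytes, was at 1156, 2605 and 389.8, and at 269.6, 450.8, 52.42 and 82.57. Each overlapped at 1 place, Csf1r because CCR6- replicate 1 lay above CCR6+ replicate 3, and Cd14 because CCR6- replicate 2 did. The log2 differences were 2.35 (SE 0.96, limma adjusted p 0.471) for Csf1r and 2.79 (SE 0.97, limma adjusted p 0.449) for Cd14, and 1.44 (SE 0.82) and 2.14 (SE 1.01) without CCR6+ replicate 2. Cst3, a secreted cystatin made by many cell types, was at 2863, 9074 and 3099, and at 1630, 3459, 1817 and 2865. Apart from CCR6+ replicate 2 the Cst3 values of the groups overlapped closely (log2 difference 0.89, SE 0.50, limma adjusted p 0.518, and 0.36 without that library).

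The signalling adaptors Fcer1g and Tyrobp, which myeloid cells and natural killer cells use, kept a ratio of 0.685 to 1.01 per kilobase over the 7 libraries. Their log2 differences were 2.20 (SE 0.93) and 2.16 (SE 0.96). The complement chains C1qa, C1qb and C1qc, products of tissue macrophages from 1 cluster at chr4:136880129-136898803, had a wider gap between CCR6+ replicates 1 and 3 than the adaptors did. C1qa was at 269.8, 493.6 and 35.53 in the CCR6+ libraries and at 80.39, 121.8, 29.43 and 1.354 in the CCR6- libraries. CCR6+ replicate 1 was 7.59, 13.9 and 11.1 times CCR6+ replicate 3 for C1qa, C1qb and C1qc, while the same ratio was 1.61 for Fcer1g and 1.72 for Tyrobp. Mrc1, the mannose receptor CD206, was at 774.9, 1467 and 194.9, and at 356.6, 420.9, 76.32 and 0. The 0 in CCR6- replicate 4 weighs on its log2 difference of 3.38 (SE 2.24), which was 1.42 without that library. Marco, a scavenger receptor of airspace macrophages, had 24 reads in CCR6+ replicate 2 and at most 6 in any other library.

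Cd68, a lysosomal glycoprotein of macrophages, had a log2 difference of 1.63 (SE 0.70). Itgam, the integrin chain CD11b, had the smallest of this list, 0.60 (SE 0.67), and 68.7% of its exonic bases overlap other genes. Over the 15 genes the median log2 difference was 2.16, and 1.24 without CCR6+ replicate 2. The other macrophage genes, a list of 18, had a median of 2.11 with 18 of 18 higher, and 1.27 with 16 of 18 higher without that library. Of that list Ccr2, a chemokine receptor that monocytes share with T cells, was at 54010, 18948 and 30868 in the CCR6+ libraries and at 23060, 23275, 16353 and 17962 in the CCR6- libraries. Ctsd, a lysosomal protease of many cell types, was at 14919, 18111 and 12121, and at 12886, 13595, 12110 and 14314. Ccr2 was highest in CCR6+ replicate 1 and Ctsd in CCR6+ replicate 2, and both overlapped between the groups. The plot of group differences shows how each gene's difference and error moved when that library was left out.

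**Figure D3:**
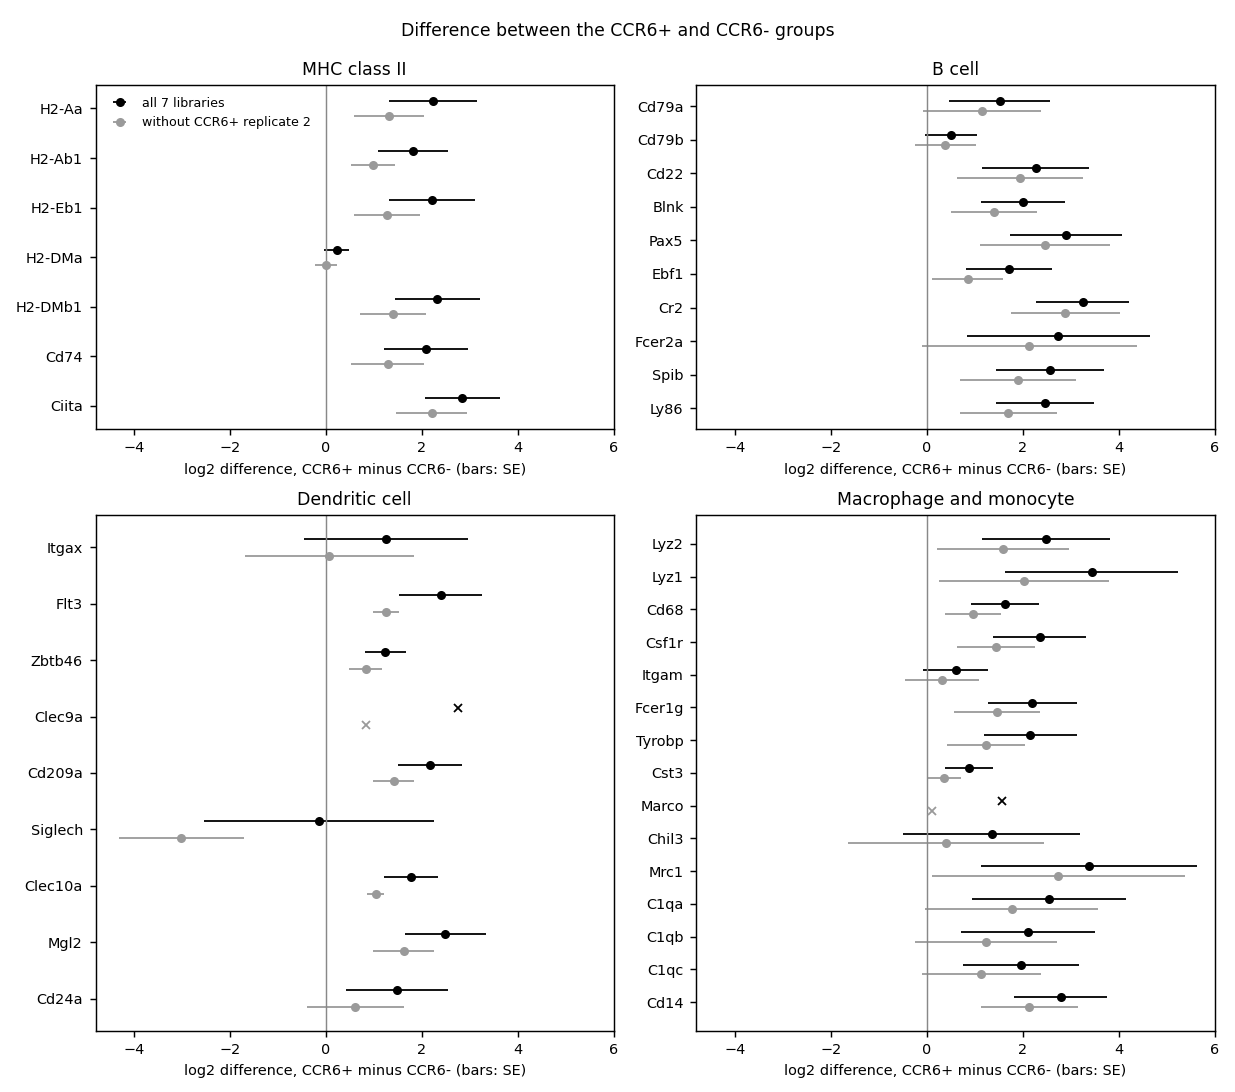
Difference of the mean log2(normalised count + 1), CCR6+ minus CCR6-, for each gene on the horizontal axis, with bars for the limma standard error; black is all 7 libraries, grey is without CCR6+ replicate 2, and crosses mark Clec9a and Marco, which were not tested. Every value but those of Siglech is above 0, every grey point lies to the left of its black point, and Ciita and Cr2 keep differences of 2.20 and 2.89.

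Counts of genes whose groups did not overlap show, with no model, how far the CCR6 gate ordered the libraries. Every CCR6+ library lay above every CCR6- library for 7 of the 41 genes, against 7.96% of all genes kept. These were Ciita, Cr2, Pax5, Flt3, Zbtb46, Cd209a and Clec10a. They made up 1 of 7 class II genes, 2 of 10 B cell genes, 4 of 9 dendritic cell genes and 0 of 15 macrophage genes. The difference between the lists was not tested.

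The overlap rested on a few libraries, as leaving each out showed. Without CCR6+ replicate 3 the count was 32 of 41 (6 class II, 8 B cell, 7 dendritic cell and 11 macrophage genes), against 13.3% of all genes. Without CCR6- replicate 2 it was 18 (5, 5, 4 and 4 genes in the same order), against 11.2%. It was 9 without CCR6+ replicate 1 and 9 without CCR6- replicate 1, against 26.9% and 9.81% of all genes. It remained at the same 7 genes without CCR6+ replicate 2 (10.9%), without CCR6- replicate 3 (10.6%) and without CCR6- replicate 4 (9.26%). Without CCR6+ replicate 1 the members' 9 of 41 was thus a smaller share than that of all genes.

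**Figure D4:**
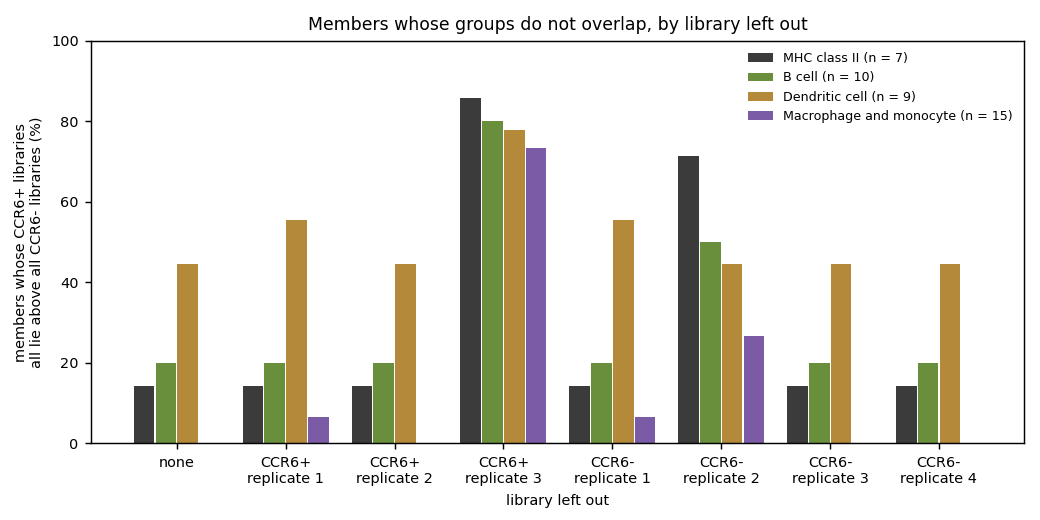
Percentage of each list's genes for which every CCR6+ library lay above every CCR6- library (vertical axis, from 0), by the library left out (horizontal axis), with 1 bar colour for each list. Leaving out CCR6+ replicate 3 raises all 4 lists, to 6 of 7, 8 of 10, 7 of 9 and 11 of 15 genes; the dendritic cell list is the highest in the other cases except without CCR6- replicate 2.

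The 3 CCR6+ libraries did not share a single level. CCR6+ replicate 1 lay above all 4 CCR6- libraries for 33 of the 41 genes (6 of 7 class II, 9 of 10 B cell, 7 of 9 dendritic cell and 11 of 15 macrophage genes), against 20.6% of all genes. CCR6+ replicate 3 did so for 9 of the 41 (1, 2, 5 and 1 genes in the same order), against 32.1% of all genes. CCR6+ replicate 1 was more than 2 times CCR6+ replicate 3 for 21 genes, against 3.96% of all genes, and 8 of the 10 B cell genes were among them. CCR6+ replicate 3 was the higher of the pair for 7 genes, against 55.3% of all genes, and 4 of these were dendritic cell genes. At the low end, CCR6- replicate 4 held the lowest value of 27 of the 41 genes, against 24.2% of all genes, among them 11 of the 15 macrophage genes.

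The mean log2 level of each list, set against the median of the CCR6- libraries, put these orders side by side. The class II list stood at 1.74, 3.50 and 0.74 in CCR6+ replicates 1 to 3, and at 0.50, 0.79, -0.50 and -0.66 in CCR6- replicates 1 to 4. The B cell list stood at 2.38, 3.11 and 0.77, and at 0.97, 1.47, -0.97 and -1.90. The macrophage list stood at 1.62, 3.44 and 0.24, and at 0.79, 0.97, -0.79 and -2.28. In these 3 lists CCR6+ replicate 3 lay under the level of CCR6- replicate 2, and CCR6- replicates 1 and 2 lay above CCR6- replicates 3 and 4. The dendritic cell list stood at 0.22, 3.93 and 0.47, and at 0.08, 0.06, -0.06 and -0.76, over all 9 genes. Its order turned on Siglech and Clec9a, both at 0 in CCR6+ replicate 1. Over the 8 genes that passed the filter, which leaves out Clec9a, it stood at 0.46, 3.61 and 0.15, and at 0.18, 0.16, -0.16 and -0.89. Without both genes it stood at 1.36, 3.40 and 0.34, and at 0.35, 0.25, -0.25 and -0.86. Over all 9 genes each CCR6+ level lay above each CCR6- level, while the groups overlapped for the other 3 lists. In the 2 reduced sets CCR6+ replicate 3 lay just under CCR6- replicate 1, at 0.15 against 0.18 and at 0.34 against 0.35, so these groups overlapped. The difference between the lists was not tested.

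**Figure D5:**
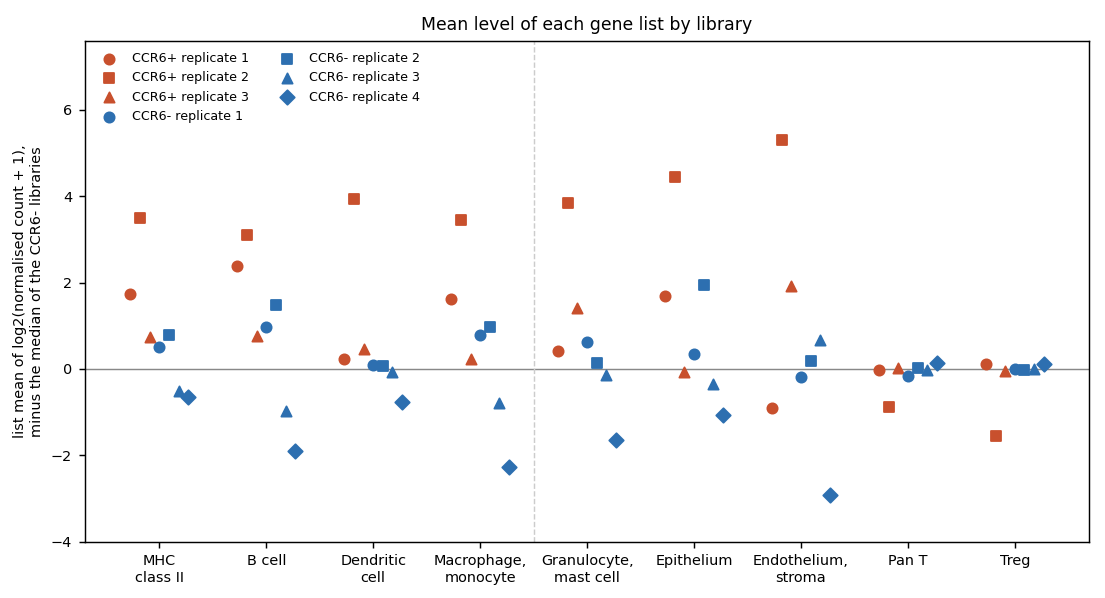
Mean of log2(normalised count + 1) over the genes of each list, minus the median of the 4 CCR6- libraries (vertical axis), for the 4 antigen-presenting cell lists left of the dashed line and 5 other lists right of it; red symbols are CCR6+ and blue symbols CCR6- libraries. CCR6+ replicate 2 is highest in 7 of the 9 lists and lowest for pan T cell and Treg genes, at -0.89 and -1.56.

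Markers of other cells differed between the libraries too. CCR6+ replicate 2 stood at 4.45 for 14 lung epithelium genes, at 5.29 for 14 endothelium and stroma genes and at 3.84 for 16 granulocyte and mast cell genes, on the same scale. It stood at -0.89 for 12 pan T cell genes and at -1.56 for 10 Treg genes, while the other 6 libraries lay between -0.17 and 0.14 for both. The 5 erythroid genes were not raised in CCR6+ replicate 2: they stood at 3.07, -0.63 and -2.42 in CCR6+ replicates 1 to 3 and at 1.11, 3.39, -1.11 and -3.72 in CCR6- replicates 1 to 4. Apart from CCR6+ replicate 2, they were high in CCR6+ replicate 1 and CCR6- replicates 1 and 2, as the B cell and macrophage lists were. Epithelium genes stood at 1.69 in CCR6+ replicate 1 and 1.95 in CCR6- replicate 2, and stroma genes at -0.90 and 0.19 in the same 2 libraries. For the stroma list CCR6+ replicate 3 was above CCR6+ replicate 1 in 14 of 14 genes. Of the B cell genes only 1 of 10 did so, and of the dendritic cell genes 4 of 9. Among the most abundant, Sftpc of surfactant-making cells was at 40101 in CCR6+ replicate 2 and between 477.3 and 3909 elsewhere. The part these other cells had in the members' differences was not tested.

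Levels per kilobase were also set against T cell transcripts of the same library. These means are carried by a few genes, such as Lyz2 and Chil3 at 47874 and 29522 per kilobase in CCR6+ replicate 2, class II genes are shared by all 3 cell types, and no value here measures a number of cells. The mean per kilobase of the 7 class II genes was 36.3%, 238% and 14.5% of that of the 12 pan T cell genes in CCR6+ replicates 1 to 3, and 15.4%, 18.9%, 5.94% and 5.29% in CCR6- replicates 1 to 4. The 15 macrophage genes came to 40.2%, 193% and 10.8%, and to 26.5%, 26.9%, 5.85% and 2.54%. The 10 B cell genes came to 3.24%, 6.77% and 0.906%, and to 1.42%, 2.17%, 0.471% and 0.456%. The 9 dendritic cell genes came to 1.43%, 13.5% and 0.998%, and to 0.788%, 0.857%, 0.581% and 0.292%. On this scale CCR6+ replicate 2 was the highest library for each list, and for the class II and macrophage lists it was the only library above 100%. CCR6- replicate 4 was the lowest for each list. In all deposited values together, the class II genes made up 0.0196% to 0.105% of a library outside CCR6+ replicate 2 and 0.420% in it.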

How the data were processed

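The 41 genes, the 4 lists and 10 further marker lists were chosen with earlier results of these data known. All 7 members of the class II list, and in each other list the genes with the 4 highest means, the 2 smallest p or groups that do not overlap, were to be given in every library; of the further lists, at most the 2 genes of highest mean could be given, and Sftpc is given for the epithelium list alone among lists of other cell types. Siglech, Clec9a, Mgl2, Lyz1, Mrc1, Marco, the C1q chains, Fcer2a and H2-Ob were added after their values were seen.

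The deposited signal per gene is a normalised count: the authors divided whole reads by a size factor, as the values show, since 100% of them are whole multiples of 1 step per library within 0.001 reads. STAR 2.5.1b, HTSeq 0.6.1p1, DESeq2 1.6.3 and mm10 are listed per the submitters' processing notes. No annotation, filter or strand setting is given in the sources used here. The kits were SMART-Seq v4 for cDNA and KAPA Hyper Prep for libraries, per the labels' protocols.

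Values were tested as log2(value + 1), on which low genes' differences are understated, with limma 3.58.1 (R 4.3.3, two-sided, no covariate, Benjamini-Hochberg over 14582 genes, threshold 0.05). edgeR 4.0.16 and DESeq2 1.42.0 were run on the recovered reads as alternatives; DESeq2 gave no adjusted p for 1095 genes, 6 of them members. The procedure was tested on simulated data, in which expected values differed between libraries only by library size and by the set changes. No simulated library was made like CCR6+ replicate 2, so that test cannot show how the fits treat it. Limits for a count of 0 are 3 reads. Levels per kilobase use the union of GENCODE M21 exons (mm10), and promoters come from RefSeq. Ighm, Ighd and Igkc were not analysed here. Alternatives are in the closing section.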

Additional observations from a re-analysis of the deposited data

Results flagged for a closer look

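Among 45 sets of 4 CCR6- values (41 genes and 4 list levels), 2 held a library far from the other 3 by Dixon's test at the 95% level, and chance alone gives about 5% of such sets. The CCR6+ group of 3 was too small for this test. Mgl2 was at 145.7 in CCR6- replicate 1, against 35.87 to 43.92 in the other CCR6- libraries. The mean log2 level of the dendritic cell list was 5.206 in CCR6- replicate 4, against 5.915 to 6.049 in the other CCR6- libraries.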

How the results depend on the processing

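Over all genes, limma called 0, and the count was 679 with DESeq2 (181 without CCR6+ replicate 2), 36 with arrayWeights (chosen gene by gene after the joint fit did not converge), 2 with edgeR (2 without CCR6+ replicate 2), 2 with a mean of at least 100, 1 with pseudocount 0.5, 2 with pseudocount 8 and 1 with TMM scaling. Members called numbered 9 with DESeq2 and 0 in the other fits; the cause was not tested. The DESeq2 and edgeR fits without CCR6+ replicate 2, and the gene-by-gene arrayWeights, were added after seeing the data. Of 39 members tested, 30 kept their sign in every alternative. Signs that turned were H2-DMa at -0.01 with edgeR without CCR6+ replicate 2; Itgax at -1.80, Cd24a at -0.09, Itgam at -0.24, Chil3 at -1.56, C1qb at -0.09 and C1qc at -0.20 with arrayWeights; Clec10a at -0.08 and Itgam at -0.08 with quantile normalization; and Siglech at 3.90 with DESeq2, 3.75 with edgeR and 0.73 with pseudocount 8. Leaving out each library moved Siglech from -3.01 to 2.47. The cause was not tested. Quantile normalization left 2 class II genes and 1 B cell gene with no overlap, and equal totals left 3 class II genes. The shares of all genes under these scalings are not given here, so these counts carry no reading about the members. Leaving out each library, genes with no overlap ranged from 1 to 6 (class II), 2 to 8 (B cell), 4 to 7 (dendritic cell) and 0 to 11 (macrophage). The shares of all genes for these cases are given above. The median log2 difference of all genes was 0.097 as deposited, 0.183 with equal totals, -0.002 with TMM and -0.084 with quantile normalization. With the replicate number as a block (replicate block), 0 genes and 0 members were called, and the difference of Ciita was 2.39. Same-numbered libraries correlated at -0.128, -0.112 and 0.342 after each gene's group mean was taken off. With so few libraries these values cannot show whether the numbers pair them, and the labels state no pairing. Reads were few for Pax5, at most 21 per library, and outside CCR6+ replicate 2 for Clec9a, at most 26, and Marco, at most 6. CCR6+ replicate 2, the library with the fewest reads in total, held the most reads of Clec9a (122) and Marco (24). Pax5 had 0 reads in CCR6- replicate 4, the deepest library. The part of depth in these low counts was not tested.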
